A study of Mus musculus with 20 samples.

Results

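Growing cells devote much of their transcription to ribosomes. In the nucleolus, RNA polymerase I (Pol I) makes the precursor of the ribosomal RNAs, small nucleolar ribonucleoproteins (snoRNPs) guide its chemical modification, and a long series of processing factors cut it and fold it into the small and the large ribosomal subunit. Ribosomal RNA itself is not polyadenylated and was not measured in these poly(A)-selected libraries, so what follows concerns only the messenger RNAs (mRNAs) of the proteins that make and process it. The genes were listed by mouse symbol, and all 52 of the 52 listed were found among the 35226 genes of the count table. They comprised 5 Pol I subunits, 5 Pol I initiation factors, 6 nucleolar regulators, 7 snoRNP proteins, 15 factors of the small subunit, 13 factors of the large subunit, and Myc, a transcription factor known for driving genes of ribosome production.

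The libraries came from 20 subcutaneous LLC1 tumors. LLC1 is a Lewis lung carcinoma line from mouse, implanted with matrigel in the flank of young adult male C57Bl6/J mice, which are syngeneic hosts with their own immune and stromal cells. The mice received vehicle, KW (KW6002 or istradefylline, an adenosine receptor antagonist), cisplatine (cisplatin, a platinum drug that binds DNA) or cisplatine+KW (below, cotreated tumors), with 5 tumors in each of the 4 groups. The labels call 4 of the vehicle tumors vehicle_vehicle and 1, replicate 1, vehicle, and all 5 were taken as 1 group. Each library held the RNA of 1 tumor, and in such bulk RNA fewer cells of a type and less RNA per cell cannot be told apart.

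Depth and makeup were as follows. The tumors had 28.37 to 40.97 M counted reads each, and 16665 genes passed the filter on low counts. All 52 members passed it and were tested, and their summed counts over the 20 tumors ran from 10978 (Taf1c) to 1108496 (Ncl). Of 6 epithelial and lung markers measured, the keratins Krt8 (95.2 to 215.4 CPM, read counts scaled to library size) and Krt18 (224 to 378 CPM) were expressed in every tumor. Cdh1 was low, at 1.24 to 3.87 CPM, and Sftpc, Scgb1a1 and Epcam did not exceed 0.144 CPM. Library codes fell in an earlier run (1 vehicle, 2 KW, 2 cisplatin and 3 cotreated tumors) and a later one (4, 3, 3 and 2 tumors), and the labels do not say what the codes stand for. The 1 vehicle tumor with an earlier code is the one labelled vehicle, and without it 11 members were called in cotreated against vehicle tumors, in place of 13 (9.23% of all genes were called lower, in place of 10.4%).

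Averaged over the 52 members, the level was lowest in cotreated tumors, though single members such as Taf1b were not. As a level for each tumor, the log2 CPM of the 52 members were averaged and the vehicle mean was subtracted. This level was 0.027, -0.012, 0.044, 0.016 and -0.075 in vehicle tumors and 0.057, -0.0014, 0.058, 0.0059 and -0.082 in KW tumors, so these groups overlapped. Cisplatin tumors had -0.083, -0.100, -0.058, -0.098 and -0.020 and cotreated tumors -0.19, -0.24, -0.27, -0.20 and -0.21, and every cotreated tumor lay below every cisplatin tumor. The group means were 0.0074 ± 0.057 for KW, -0.072 ± 0.034 for cisplatin and -0.22 ± 0.033 for cotreatment (SD, n = 5), against an SD of 0.047 in vehicle. Within the earlier codes the mean level was -0.091 in cisplatin and -0.23 in cotreated tumors, and within the later codes it was -0.058 and -0.20. The initiation factors alone were at 0.064 ± 0.056 in cisplatin and 0.053 ± 0.044 in cotreated tumors, and overlapped.

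**Figure D1:**
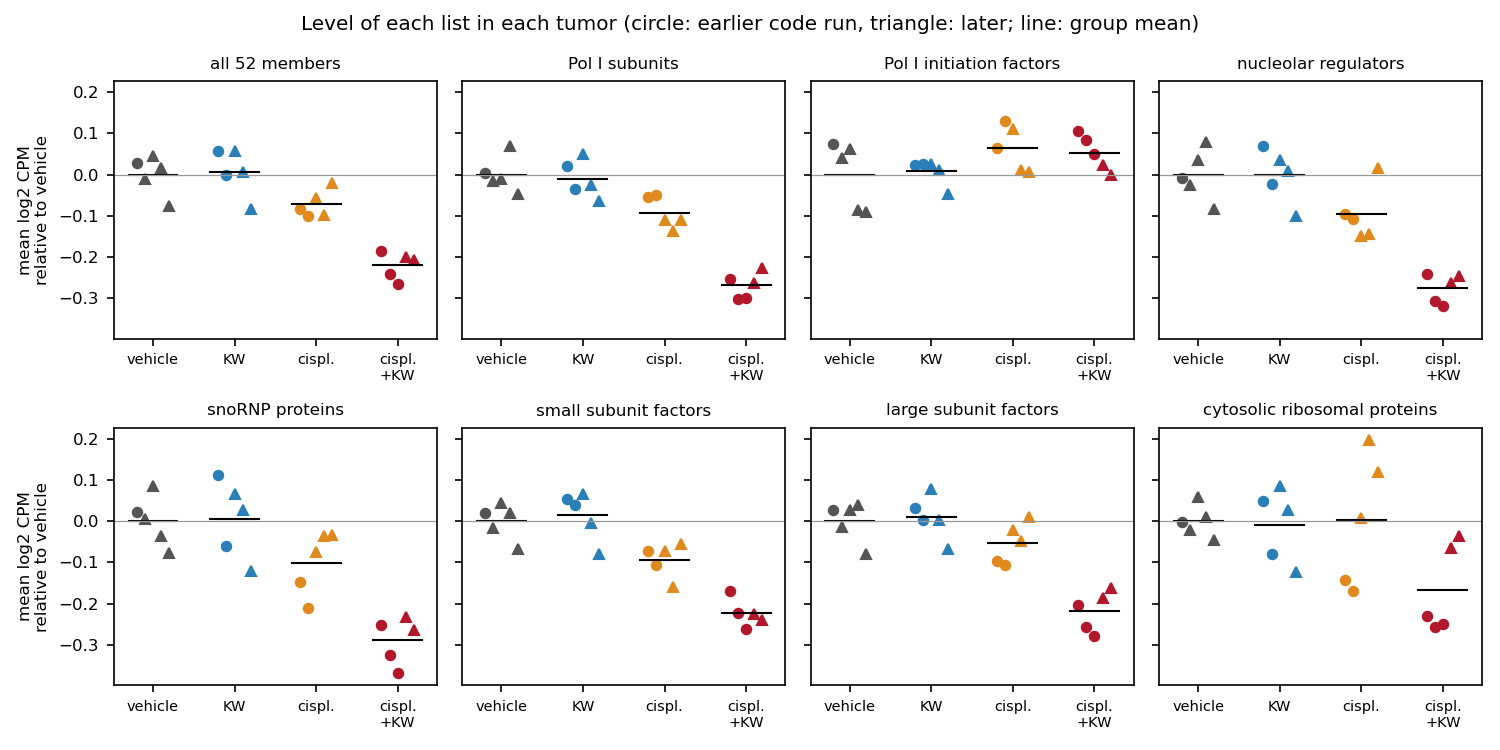
Mean log2 CPM of each list in each of the 20 tumors (y axis), relative to the vehicle mean, by treatment group (x axis), with circles for the earlier and triangles for the later library codes and a line at the group mean. For all 52 members the cotreated tumors sit between -0.27 and -0.19 and the cisplatin tumors between -0.100 and -0.020, while the initiation factors stay between -0.00061 and 0.11 in cotreated tumors.

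Each comparison was fitted across all genes with edgeR's quasi-likelihood test, and a gene was called when its adjusted P value was under 0.05 and its log2 fold change was at least 0.32 in size. In cotreated against cisplatin tumors, 4 of the 52 members were called lower, where 1.71% of all genes tested were, and 0 were called higher, where 2.29% of all genes were. The 4 were Polr1d, Tcof1, Rrp12 and Bop1, lower by 20.3% to 26.9%. The fitted log2 fold change was below 0 for 48 of the 52 members, with a median of -0.13, against -0.0059 over all genes. Without the fold limit 11 members passed, all lower, where 3.22% of all genes passed in that direction. Every cotreated tumor lay below every cisplatin tumor for 11 members, where 2.5% of all genes showed such a separation.

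Against vehicle, cotreated tumors had 13 members called lower (10.4% of all genes were) and 0 called higher (13.1% of all genes were), with a median log2 fold change of -0.25 over the members and -0.016 over all genes. In that comparison 34 members passed the adjusted P value in the lower direction when no fold limit was set, where 17.7% of all genes did, and 1, Taf1b, passed in the higher direction. For 26 members every cotreated tumor lay below every vehicle tumor, which held for 12.4% of all genes. Against KW tumors, 15 members were called lower in cotreated tumors (10.7% of all genes) and 0 higher (12.6% of all genes). The comparisons of cotreatment with vehicle, KW and cisplatin share the same 5 cotreated tumors.

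Single treatments gave no member past both thresholds. Cisplatin against vehicle had 0 members called lower (4.57% of all genes were) and 0 called higher (6.01%), with a median log2 fold change of -0.070 and 42 of the 52 below 0. With no fold limit 8 members were lower at an adjusted P value under 0.05 (8.24% of all genes): Polr1d, Ncl, Dkc1, Gar1, Utp15, Wdr75, Heatr1 and Ddx10. At an unadjusted P value under 0.05, 15 members passed, all lower, where 30.9% of all genes passed in either direction. DESeq2 and limma voom likewise called 0 members. Of 35226 genes with no filter on low counts, DESeq2 called 819 lower (2.32%) and 1118 higher. Of the 16665 that passed the filter, limma voom called 804 lower (4.82%) and 941 higher. The shares of DESeq2 and of limma voom are thus over unlike sets of genes. Every cisplatin tumor lay below every vehicle tumor for 6 members (5.12% of all genes). KW against vehicle had 0 members called in either direction (0% of all genes lower and 0% higher), 0 at an unadjusted P value under 0.05 (2.03% of all genes), and 0 with DESeq2 or limma voom (0 of all genes with either).

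The interaction asks whether KW changed a gene differently with cisplatin than without it. It was below 0 for 48 of the 52 members, with a median of -0.15 on the log2 scale, but 0 members were called by edgeR (0.03% of all genes were called lower and 0.036% higher). At an unadjusted P value under 0.05, 17 members passed, all of them negative, where 12.2% of all genes passed in either direction. limma voom called 0 members, and 1 gene lower and 1 higher among all 16665. DESeq2 called 3 members lower, Polr1d, Rrp12 and Noc2l. Of all 35226 genes, those under the filter on low counts included, it called 114 lower (0.324%), where edgeR called 5 of 16665. The shares of DESeq2 and edgeR are thus over unlike sets of genes. Of these 3 members, Polr1d had the smallest adjusted P value by edgeR, 0.0571, at -0.40 ± 0.085 (SE).

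**Figure D2:**
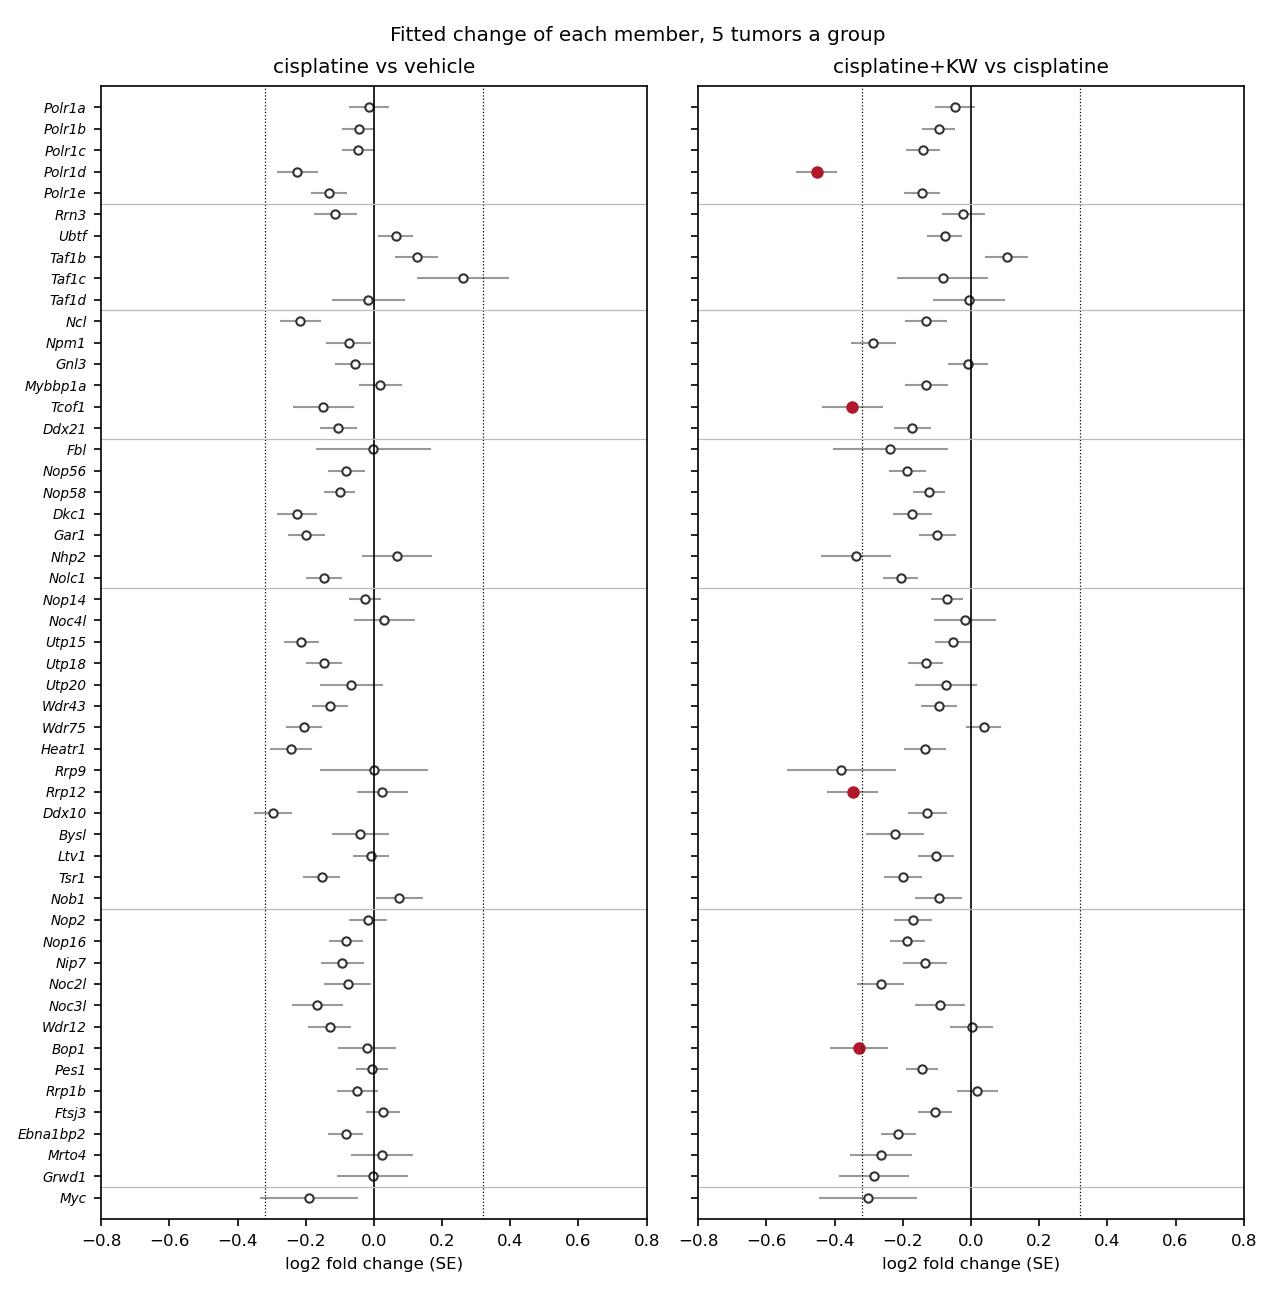
Fitted log2 fold change (x axis, with SE) of each of the 52 members (y axis, by role, separated by gray lines) for cisplatin against vehicle on the left and cotreated against cisplatin on the right. Filled red points are the 4 called members, Polr1d, Tcof1, Rrp12 and Bop1, and dotted lines mark the fold limit of 0.32 in both directions; 48 members lie left of 0 in the right panel.

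Among the Pol I subunits, Polr1d stood out. Polr1d and Polr1c are the small assembly subunits that Pol I shares with RNA polymerase III (Pol III). Polr1d was at 80.1, 70.9, 74.7, 80.0 and 77.5 CPM in vehicle tumors and at 75.7, 70.6, 81.0, 74.8 and 68.4 in KW tumors, while cisplatin tumors had 63.9, 67.2, 63.8, 68.2 and 64.8 and cotreated tumors 46.4, 42.3, 46.0, 52.4 and 52.5. Cisplatin tumors lay below every vehicle tumor and cotreated tumors lay below every cisplatin tumor, with no overlap between these 3 groups. The mean fell from 76.6 ± 3.91 CPM in vehicle over 65.6 ± 2 with cisplatin to 47.9 ± 4.41 with cotreatment (SD, n = 5). The log2 fold change was -0.23 ± 0.06 (SE) for cisplatin against vehicle (adjusted P = 0.0138, under the fold limit), -0.45 ± 0.06 for cotreated against cisplatin tumors (adjusted P = 0.000645) and -0.68 ± 0.06 for cotreated against vehicle (adjusted P = 1.41e-07). Within the earlier codes the cotreated tumors differed from cisplatin tumors by -0.54 (adjusted P = 0.00844) and within the later codes by -0.32 (adjusted P = 0.209). The gene lies at chr5:147077050-147111597 on the plus strand of GRCm38.

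The other 4 subunits gave smaller differences, and none was called. Polr1a and Polr1b form the catalytic core of the enzyme. Polr1a was at 229, 238, 231, 237 and 207 CPM in vehicle tumors and at 219, 234, 230.2, 215 and 217 in KW tumors, while cisplatin tumors had 245, 248, 218, 204 and 215 and cotreated tumors 231, 227, 221, 202 and 211. Polr1b was at 94.8, 91.0, 94.5, 93.3 and 85.5 CPM in vehicle tumors and at 103, 92.4, 91.2, 92.8 and 87.9 in KW tumors, while cisplatin tumors had 89.3, 89.9, 91.1, 82.7 and 92.1 and cotreated tumors 84.3, 86.2, 82.8, 79.6 and 83.8. Polr1a overlapped throughout (-0.047 ± 0.059 for cotreated against cisplatin tumors, adjusted P = 0.662), and Polr1b was within the range of the cisplatin tumors in most cotreated ones (-0.095 ± 0.048, adjusted P = 0.237). Polr1c was at 129, 128, 129, 136 and 127 CPM in vehicle tumors and at 124, 124, 138, 128 and 129 in KW tumors, while cisplatin tumors had 128, 122, 124, 123 and 132 and cotreated tumors 114, 106, 106, 126 and 118. One cotreated tumor of Polr1c, at 126 CPM, reached into the cisplatin range, and the difference was -0.14 ± 0.05 (adjusted P = 0.0922). Polr1e, the mouse PAF53 subunit, joins the enzyme at its periphery. Polr1e was at 36.0, 38.7, 37.0, 42.2 and 39.0 CPM in vehicle tumors and at 40.4, 37.7, 40.5, 38.4 and 38.0 in KW tumors, while cisplatin tumors had 36.9, 36.8, 34.7, 35.2 and 32.3 and cotreated tumors 32.4, 31.9, 31.6, 30.2 and 33.2. Its difference was -0.14 ± 0.053 against cisplatin (adjusted P = 0.107) and -0.28 ± 0.053 against vehicle (adjusted P = 0.000395, under the fold limit), and every cotreated tumor lay below every vehicle tumor. Per kilobase of exon, vehicle tumors held 57.0 CPM per kb of Polr1c, 25.2 of Polr1d, 19.2 of Polr1a, 15.8 of Polr1b and 9.90 of Polr1e, and cotreated tumors 50.1, 15.8, 18.4, 14.4 and 8.17.

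The initiation factors bring Pol I to the ribosomal DNA promoter, and 0 of 5 were called in any comparison, where 0% to 13.1% of all genes were called in 1 direction. Rrn3 links the enzyme to the factors already bound there. Rrn3 was at 88.4, 82.2, 78.4, 93.0 and 82.5 CPM in vehicle tumors and at 81.1, 92.0, 82.0, 80.9 and 80.2 in KW tumors, while cisplatin tumors had 79.5, 87.8, 82.2, 69.5 and 73.2 and cotreated tumors 81.0, 79.4, 78.0, 76.8 and 71.1. Ubtf, the upstream binding factor, keeps ribosomal DNA open. Ubtf was at 249, 239, 257, 214 and 228 CPM in vehicle tumors and at 247, 229, 245, 229 and 231 in KW tumors, while cisplatin tumors had 234, 245, 253, 257 and 253 and cotreated tumors 235, 252, 229, 229 and 233. Neither separated the groups, with differences between cotreated and cisplatin tumors of -0.022 ± 0.063 (adjusted P = 0.867) and -0.077 ± 0.051 (adjusted P = 0.376). Taf1b, Taf1c and Taf1d belong to selectivity factor SL1, which recognizes the promoter. Taf1b was at 26.3, 25.6, 27.98, 25.2 and 26.6 CPM in vehicle tumors and at 26.6, 21.6, 26.5, 27.5 and 24.9 in KW tumors, while cisplatin tumors had 26.7, 29.9, 27.5, 28.7 and 30.8 and cotreated tumors 30.5, 30.5, 32.4, 29.8 and 31.2. Taf1b was the 1 member with an adjusted P value under 0.05 in the higher direction, at 0.23 ± 0.063 for cotreated against vehicle tumors (adjusted P = 0.00703, under the fold limit), and every cotreated tumor was above every vehicle tumor. Taf1c was at 18.1, 17.2, 18.4, 10.5 and 12.5 CPM in vehicle tumors and at 16.2, 17.8, 17.7, 15.6 and 13.1 in KW tumors, while cisplatin tumors had 16.6, 16.1, 21.02, 20.9 and 17.2 and cotreated tumors 17.8, 18.8, 15.1, 18.5 and 16.5. Taf1d was at 185, 199, 178, 211 and 175 CPM in vehicle tumors and at 187, 202, 174, 195 and 209.9 in KW tumors, while cisplatin tumors had 227, 227, 183, 146 and 156 and cotreated tumors 210.5, 175, 205, 168 and 176. Both overlapped widely, and 2 vehicle tumors of Taf1c and 2 cisplatin tumors of Taf1d were low within their groups. Their differences between cotreated and cisplatin tumors were -0.083 ± 0.13 and -0.0058 ± 0.11 (adjusted P = 0.743 and 0.98). Exons of Taf1d hold small RNA genes, and exons of Taf1c and of Dnaaf1 on the opposite strand overlap by 584 bases.

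**Figure D3:**
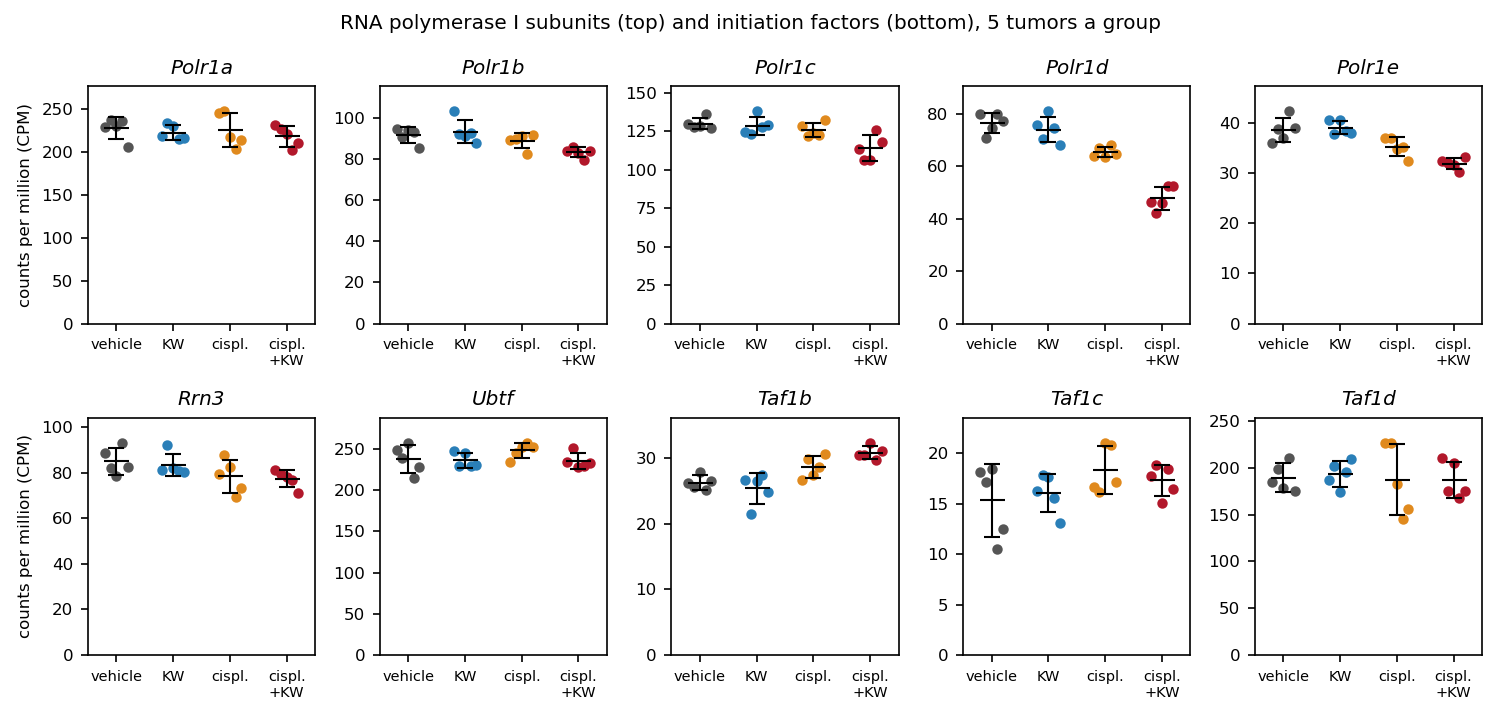
CPM (y axis, from 0) of the 5 Pol I subunits (top) and 5 initiation factors (bottom) in each tumor by group (x axis), with the mean and SD of 5 tumors as bars. Polr1d steps down from a mean of 76.6 ± 3.91 in vehicle to 47.9 ± 4.41 CPM in cotreated tumors without overlap, and none of the initiation factors does.

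Promoter sequences are shown because Myc is a member and its heterodimers are known to bind the hexamer CACGTG (an E-box). In the RefSeq promoter table (GRCm38.p6), windows from 250 bases before to 50 bases after the start were given for 46 of the 52 members, all but Bop1, Tcof1, Myc, Rrp12, Npm1 and Fbl. The hexamer, which reads the same on both strands, occurred in a window of 10 of these 46 members (21.7%), of 11.1% of the genes tested here that the table held, and of 8.09% of all its genes. It was found for 5 of 14 small subunit factors, 3 of 12 large subunit factors, 1 nucleolar regulator (Mybbp1a) and Rrn3, and in no window of the 5 Pol I subunits or the 6 snoRNP proteins given. RefSeq and GENCODE starts differ: in 12 of the 56 windows counted, those of Polr1d and Wdr43 included, all bases before the RefSeq start lie inside the gene as GENCODE places it, so that these counts compare unlike windows. Below are the 250 bases before the start, 5′ to 3′, of Rrn3 (chr16:13780449-13780698, plus strand), of the large subunit factor Nop2 (chr6:125131633-125131882, plus strand) and of the small subunit factor Utp18 (chr11:93885767-93886016, minus strand), with the hexamer in capitals.
Rrn3: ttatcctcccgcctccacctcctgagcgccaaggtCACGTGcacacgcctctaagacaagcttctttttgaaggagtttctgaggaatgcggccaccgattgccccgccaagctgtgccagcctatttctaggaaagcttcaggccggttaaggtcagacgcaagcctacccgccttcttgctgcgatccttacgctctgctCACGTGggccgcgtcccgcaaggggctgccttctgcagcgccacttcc
Nop2: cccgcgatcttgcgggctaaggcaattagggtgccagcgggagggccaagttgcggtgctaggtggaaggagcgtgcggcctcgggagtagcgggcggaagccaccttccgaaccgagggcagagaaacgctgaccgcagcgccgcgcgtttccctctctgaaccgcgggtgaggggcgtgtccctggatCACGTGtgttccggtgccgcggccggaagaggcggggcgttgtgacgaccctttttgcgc
Utp18: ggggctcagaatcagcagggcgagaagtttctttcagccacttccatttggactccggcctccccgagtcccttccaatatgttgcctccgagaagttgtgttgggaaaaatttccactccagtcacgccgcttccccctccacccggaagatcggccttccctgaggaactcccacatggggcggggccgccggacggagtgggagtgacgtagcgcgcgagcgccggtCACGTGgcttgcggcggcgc
The Rrn3 window held the hexamer at 215 and at 48 bases before the start, the Nop2 window at 60 and the Utp18 window at 20. These were printed because no other member with a match had it before the start. In Grwd1, Ltv1, Mybbp1a, Pes1, Tsr1, Utp20 and Wdr43 the match lay after the start, from base 3 (Pes1) to base 41 (Mybbp1a). The median log2 fold change between cotreated and cisplatin tumors was -0.13 both for the 10 members with a match and for the 36 without one, and against vehicle it was -0.17 and -0.25. These medians do not cover the 6 members with no window. A match is a description of these windows and not a site of binding.

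Myc itself varied more between tumors than any Pol I subunit. Myc was at 413, 306, 402, 314 and 316 CPM in vehicle tumors and at 424, 323, 344, 389 and 299 in KW tumors, while cisplatin tumors had 262, 252, 303, 278 and 439.5 and cotreated tumors 245, 222, 236, 313 and 229. Cotreated tumors differed from vehicle tumors by -0.49 ± 0.14 (log2, SE; adjusted P = 0.0117) and were called lower, and 1 of them, at 313 CPM, lay inside the vehicle range. Of the cisplatin tumors, 4 lay below every vehicle tumor and 1, at 439.5 CPM, above them all, and the difference of cotreated from cisplatin tumors, -0.30 ± 0.14, did not pass (adjusted P = 0.213). Among 9 tested genes of Myc partners and antagonists, 0 were called in cotreated against cisplatin tumors (1.71% of all genes were called lower and 2.29% higher). The smallest adjusted P values were those of Mxd4 (0.29 ± 0.088, adjusted P = 0.0525) and Mxd3 (-0.38 ± 0.24, adjusted P = 0.356), which compete with Myc for the same partner. Mxd4 was called higher in cotreated than in vehicle tumors (0.68 ± 0.088, adjusted P = 7.46e-06). Its mean was 99.8 CPM in vehicle, 131 in cisplatin and 160 in cotreated tumors. With cisplatin alone against vehicle, 1 of the 9 genes was called higher (6.01% of all genes were), and the highest value of the list was 0.39.

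Nucleolar regulators fell in cotreated tumors in part. Of the 6, 3 were called lower against vehicle (Ncl, Npm1 and Tcof1; 10.4% of all genes) and 1 against cisplatin (Tcof1; 1.71% of all genes). Tcof1 encodes treacle, which works with Ubtf in ribosomal DNA transcription. Tcof1 was at 79.8, 78.0, 94.6, 70.5 and 70.5 CPM in vehicle tumors and at 87.1, 80.3, 88.1, 78.0 and 71.4 in KW tumors, while cisplatin tumors had 63.9, 62.2, 71.2, 75.2 and 82.3 and cotreated tumors 58.1, 60.9, 48.0, 58.1 and 53.4. Every cotreated tumor was below every cisplatin and every vehicle tumor, and the difference was -0.35 ± 0.09 against cisplatin (adjusted P = 0.0247) and -0.50 ± 0.09 against vehicle (adjusted P = 0.000242). Npm1, nucleophosmin, is an abundant chaperone of ribosome assembly. Npm1 was at 626, 665, 631, 770.1 and 646 CPM in vehicle tumors and at 684, 611, 628, 642 and 631 in KW tumors, while cisplatin tumors had 621, 663, 568, 632 and 687 and cotreated tumors 518, 473, 499, 533 and 575. In Npm1, 1 cotreated tumor at 575 CPM exceeded the lowest cisplatin tumor, and the difference of -0.29 ± 0.066 passed the adjusted P value (0.0137) but not the fold limit. Against vehicle it was -0.36 ± 0.066 (adjusted P = 0.000249). Gnl3, nucleostemin, had the largest adjusted P value of this role. Gnl3 was at 229.8, 214, 218, 249 and 209 CPM in vehicle tumors and at 235, 223, 225, 227 and 202 in KW tumors, while cisplatin tumors had 207, 213, 214, 202 and 241 and cotreated tumors 223, 202, 214, 212 and 219.9. The Gnl3 groups overlapped, with a difference of -0.0086 ± 0.058 from cisplatin (adjusted P = 0.946). Ncl, nucleolin, differed by -0.35 ± 0.061 from vehicle (adjusted P = 0.000173), and the helicase Ddx21 had -0.28 ± 0.055 (adjusted P = 0.000566, under the fold limit) and Mybbp1a -0.11 ± 0.062 (adjusted P = 0.17).

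All 7 snoRNP proteins had values below 0 in cotreated against cisplatin tumors, from -0.34 to -0.099 (51.2% of all genes were below 0), and 0 were called (1.71% of all genes were called lower). Nolc1 is a chaperone that gathers snoRNPs in the nucleolus. Nolc1 was at 298, 295, 321, 320.2 and 290.5 CPM in vehicle tumors and at 314, 289, 312, 297 and 279 in KW tumors, while cisplatin tumors had 267, 264, 276, 271 and 298 and cotreated tumors 234, 224, 231, 245 and 259. Nop56 is a core protein of the box C/D particles, which methylate ribosomal RNA. Nop56 was at 281, 284, 278, 272 and 252 CPM in vehicle tumors and at 306, 273, 292, 294 and 257 in KW tumors, while cisplatin tumors had 244, 247, 264, 269.8 and 266 and cotreated tumors 241, 211, 220.0, 225 and 239. In both, every cotreated tumor lay below every cisplatin tumor, and the differences of -0.21 ± 0.052 and -0.19 ± 0.055 passed the adjusted P value (0.0223 and 0.0452) under the fold limit. Fbl, fibrillarin, is the methyltransferase of these particles and had the largest adjusted P value of the role. Fbl was at 26.2, 24.4, 31.0, 17.4 and 21.1 CPM in vehicle tumors and at 29.8, 22.5, 24.8, 23.0 and 18.4 in KW tumors, while cisplatin tumors had 21.1, 15.0, 25.4, 29.7 and 28.7 and cotreated tumors 21.995, 21.6, 17.4, 21.3 and 19.4. The cisplatin tumors of Fbl ranged from 15.0 to 29.7 CPM and enclosed all cotreated tumors, and the difference of -0.24 ± 0.17 did not pass (adjusted P = 0.418). Against vehicle, Nolc1 (-0.35 ± 0.052, adjusted P = 3.19e-05) and Dkc1 (-0.40 ± 0.058, adjusted P = 2.59e-05) were called lower, where 10.4% of all genes were. Dkc1, dyskerin, is the pseudouridine synthase of the box H/ACA particles, whose other members Gar1 and Nhp2 differed from vehicle by -0.30 ± 0.055 and -0.27 ± 0.1 (adjusted P = 0.000278 and 0.0452), under the fold limit. Against cisplatin the values were -0.17 ± 0.058 for Dkc1, -0.10 ± 0.055 for Gar1, -0.34 ± 0.1 for Nhp2 and -0.12 ± 0.046 for Nop58, a partner of Nop56 (adjusted P = 0.0764, 0.286, 0.0516 and 0.114).

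**Figure D4:**
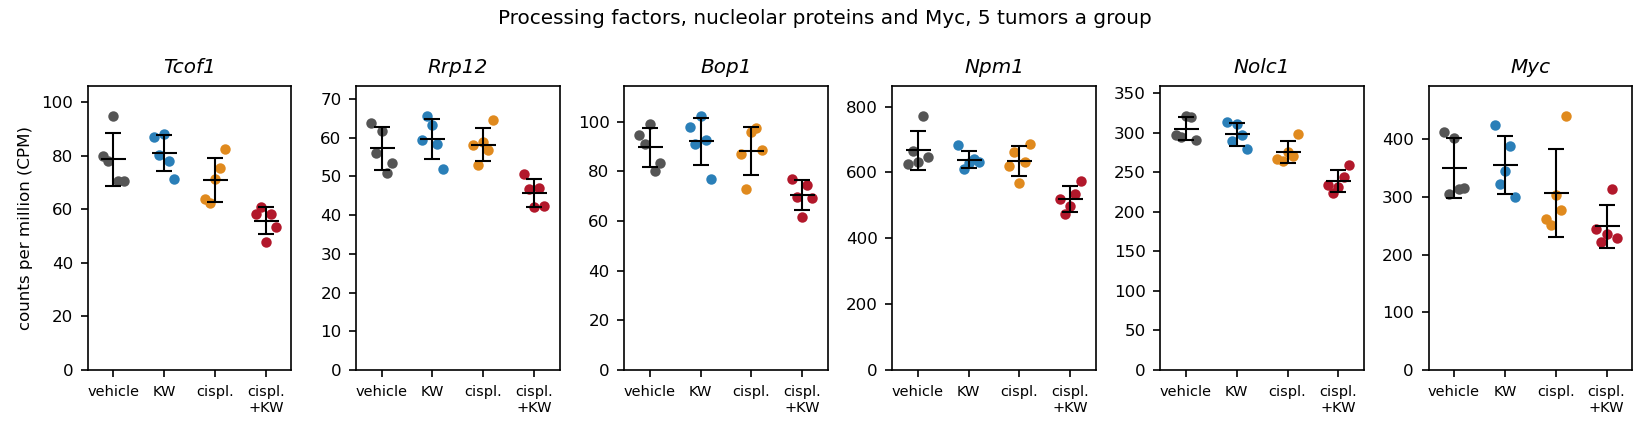
CPM (y axis, from 0) of Tcof1, Rrp12, Bop1, Npm1, Nolc1 and Myc in each tumor by group (x axis), with the mean and SD of 5 tumors as bars. Cotreated tumors lie below all cisplatin tumors for Tcof1, Rrp12 and Nolc1, and Myc has 1 cisplatin tumor at 439.5 CPM and 1 cotreated tumor at 313 CPM above the others of their groups.

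Of the 15 small subunit factors, 14 were below 0 in cotreated against cisplatin tumors (51.2% of all genes were), with a median of -0.10, and Rrp12 was called (1.71% of all genes were called lower). Rrp12 takes part in the export of ribosomal subunits from the nucleus. Rrp12 was at 63.8, 56.2, 61.9, 50.9 and 53.5 CPM in vehicle tumors and at 59.5, 65.5, 63.4, 58.3 and 52.04 in KW tumors, while cisplatin tumors had 58.1, 52.9, 58.8, 56.9 and 64.5 and cotreated tumors 50.6, 46.8, 42.2, 46.9 and 42.4. Every cotreated tumor was below every tumor of the other 3 groups, though the highest, at 50.6 CPM, was close to the lowest vehicle tumor, at 50.9. The difference was -0.35 ± 0.074 against cisplatin (adjusted P = 0.00934) and -0.32 ± 0.074 against vehicle (adjusted P = 0.00194), while cisplatin alone gave 0.024 ± 0.074 (adjusted P = 0.856). The value against vehicle sits on the fold limit, and that call was lost in 16 of 23 alternatives, with values from -0.36 to -0.27. Tsr1 acts late in the maturation of the small subunit. Tsr1 was at 172, 181, 182, 195 and 174 CPM in vehicle tumors and at 185, 185, 182, 174 and 182 in KW tumors, while cisplatin tumors had 169, 176, 167, 141 and 161 and cotreated tumors 150.4, 133, 144, 145 and 136. One cisplatin tumor of Tsr1, at 141 CPM, lay within the cotreated range, and the difference of -0.20 ± 0.056 passed the adjusted P value (0.0364) under the fold limit. Exons of Tsr1 overlap those of Srr on the opposite strand over 1240 bases. Noc4l is a nucleolar assembly factor of this subunit. Noc4l was at 44.8, 32.4, 38.4, 34.1 and 34.6 CPM in vehicle tumors and at 44.7, 40.0, 37.7, 36.8 and 31.4 in KW tumors, while cisplatin tumors had 38.3, 36.4, 40.1, 38.5 and 34.8 and cotreated tumors 39.2, 40.8, 37.3, 33.1 and 35.5. It overlapped in all groups (-0.017 ± 0.09, adjusted P = 0.93).

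Against vehicle, 4 of the 15 small subunit factors were called lower in cotreated tumors (10.4% of all genes were): Ddx10, a helicase (-0.42 ± 0.056, adjusted P = 9.98e-06), Heatr1, which also serves Pol I transcription (-0.38 ± 0.062, adjusted P = 9.11e-05), Tsr1 (-0.35 ± 0.056, adjusted P = 6.31e-05) and Rrp12, whose call stood in only 7 of 23 alternatives. For 2 of these, cisplatin alone passed the adjusted P value. It gave -0.30 ± 0.056 for Ddx10 and -0.24 ± 0.062 for Heatr1 (adjusted P = 0.00132 and 0.0106, under the fold limit), and cotreatment against cisplatin gave -0.13 ± 0.056 and -0.14 ± 0.062 (adjusted P = 0.175 and 0.192). Whether these genes differ from Rrp12 in that respect was not tested. Wdr75 and Utp15, of the early processome that forms on the precursor, had -0.20 ± 0.052 and -0.21 ± 0.051 with cisplatin alone (adjusted P = 0.0104 and 0.00747) and 0.037 ± 0.052 and -0.053 ± 0.051 between cotreated and cisplatin tumors (adjusted P = 0.703 and 0.564). Rrp9, with the most negative value of the role against cisplatin, -0.38 ± 0.16, had a wide error and did not pass (adjusted P = 0.159). The remaining 7 small subunit factors (Nop14, Utp18, Utp20, Wdr43, Bysl, Ltv1 and Nob1) had values from -0.22 (Bysl) to -0.07 (Nop14) against cisplatin, none called. For Utp18 every cotreated tumor lay below every cisplatin tumor (-0.13 ± 0.052, adjusted P = 0.128).

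Of the 13 large subunit factors, 11 were below 0 in cotreated against cisplatin tumors (51.2% of all genes were), with a median of -0.17. Bop1, which forms the PeBoW complex of large subunit processing with Pes1 and Wdr12, was the 1 called (1.71% of all genes were called lower), and it falls outside the naming rule. Bop1 was at 94.6, 91.1, 99.0, 80.3 and 83.2 CPM in vehicle tumors and at 97.9, 90.9, 102.1, 92.5 and 76.8 in KW tumors, while cisplatin tumors had 87.0, 73.0, 95.7, 97.5 and 88.6 and cotreated tumors 77.0, 69.5, 61.5, 74.6 and 69.3. One cisplatin tumor, at 73.0 CPM, lay within the cotreated range. The difference was -0.33 ± 0.085 against cisplatin (adjusted P = 0.0249) and -0.35 ± 0.085 against vehicle (adjusted P = 0.00303), and cisplatin alone gave -0.021 ± 0.085. Its partners were not called, with -0.14 ± 0.047 for Pes1 (adjusted P = 0.0696) and 0.0022 ± 0.064 for Wdr12 (adjusted P = 0.988), the largest adjusted P value of the role. Wdr12 was at 80.2, 84.3, 77.5, 89.9 and 81.2 CPM in vehicle tumors and at 74.1, 84.3, 92.0, 78.0 and 91.0 in KW tumors, while cisplatin tumors had 77.7, 82.5, 76.8, 72.4 and 68.1 and cotreated tumors 75.7, 73.0, 72.0, 80.0 and 77.4. The Wdr12 groups overlapped. Ebna1bp2 and Noc2l are nucleolar proteins of early large subunit assembly. Ebna1bp2 was at 116, 112, 118, 110.4 and 113 CPM in vehicle tumors and at 114, 108, 124, 117 and 106 in KW tumors, while cisplatin tumors had 103, 99.1, 106, 117 and 111 and cotreated tumors 95.2, 94.1, 87.5, 93.4 and 92.7. Noc2l was at 247, 241, 261, 233 and 232 CPM in vehicle tumors and at 288, 259, 266, 259 and 233 in KW tumors, while cisplatin tumors had 224, 218, 219.8, 225 and 264 and cotreated tumors 189, 164, 194, 201 and 208. In both, every cotreated tumor lay below every cisplatin tumor, and the differences of -0.21 ± 0.051 and -0.27 ± 0.068 passed the adjusted P value (0.018 and 0.0244) under the fold limit. Noc2l was called lower against vehicle (-0.34 ± 0.068, adjusted P = 0.000565), and its exons overlap those of Samd11 on the opposite strand over 598 bases. Nop16 (-0.19 ± 0.051, adjusted P = 0.0321) passed in the same way, and Nop2, an RNA methyltransferase whose cotreated tumors also lay below every cisplatin tumor, did not (-0.17 ± 0.055, adjusted P = 0.0667). The remaining 6 (Nip7, Noc3l, Rrp1b, Ftsj3, Mrto4 and Grwd1) had values from -0.28 (Grwd1) to 0.018 (Rrp1b), none called.

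Against cisplatin, the calls of members other than Polr1d depended on single tumors and on the settings of the fit. Of 24 alternatives, those with a tumor left out included, the call was lost in 12 for Bop1, 9 for Tcof1, 5 for Rrp12 and 2 for Polr1d (the test against the fold limit and the later codes). Leaving out each cisplatin or cotreated tumor in turn gave 1 to 6 called members, where 0.634% to 2.67% of all genes were called lower, and Polr1d was called in each of these 10 fits. Without cisplatin replicate 5 or without cotreated replicate 3 only Polr1d was called, and without cisplatin replicate 4 only Polr1d and Rrp12. Tcof1 and Bop1 were also lost without cisplatin replicate 3, Tcof1 without cotreated replicate 5 and Bop1 without cotreated replicate 2. Against vehicle the count was 8 without cotreated replicate 2, when Npm1, Nolc1, Tsr1, Noc2l and Rrp12 were lost, and 10 to 14 without any other tumor, where 8.1% to 10.5% of all genes were called lower over these fits. Polr1d, Tcof1, Dkc1, Heatr1, Ddx10 and Myc were called against vehicle in all of these fits. Within the earlier codes Tcof1, Rrp12 and Bop1 differed between cotreated and cisplatin tumors by -0.17, -0.25 and -0.20, and within the later codes by -0.45, -0.43 and -0.38 (adjusted P = 0.197 to 0.42). The fold limit also mattered: a test of the difference against that limit called 0 members here, and against vehicle it called Polr1d alone.

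**Figure D5:**
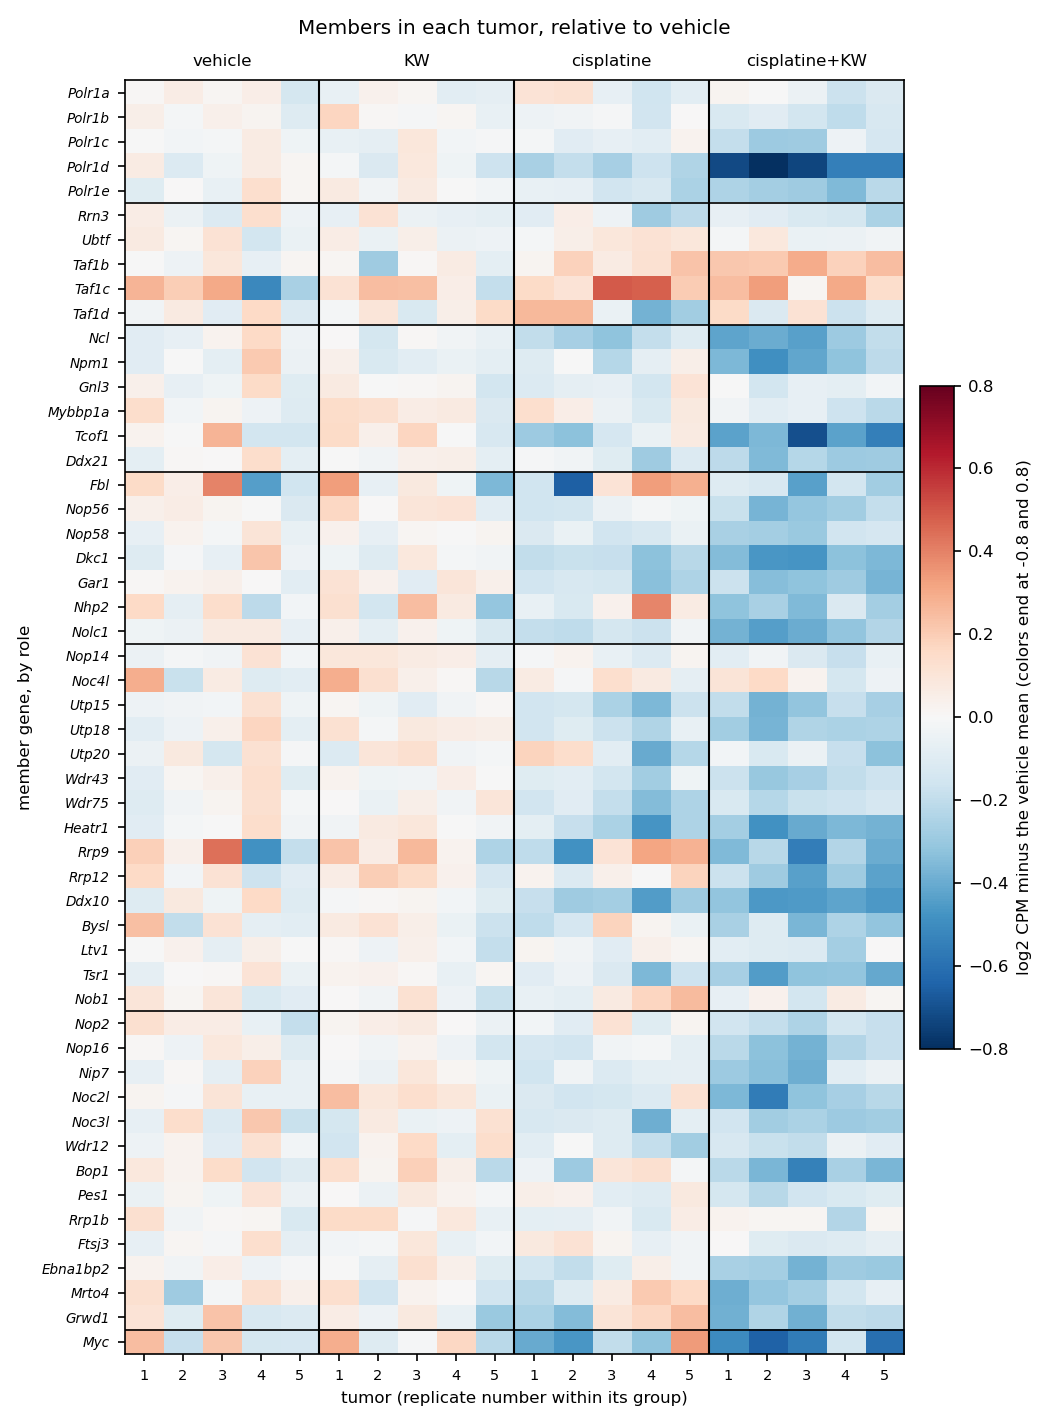
Log2 CPM of each member (rows, by role) in each of the 20 tumors (columns, by group and replicate number), minus the vehicle mean of that member, with blue for lower and red for higher. The 5 cotreated columns are mostly blue, deepest at Polr1d, Tcof1 and Myc, and Taf1b is red in all 5.

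Other genes of the pathway were listed by role, with earlier results of these data known. Of 101 further ribosome biogenesis genes, all tested, 0 were called in cotreated against cisplatin tumors by edgeR. Of all genes, 1.71% were called lower and 2.29% higher there. With no fold limit 9 of the 101 passed the adjusted P value (6.52% of all genes did). An unadjusted P value under 0.05 was seen for 36 (23.3% of all genes). Values were below 0 for 84 (51.2% of all genes), and the median of the 101 was -0.097. Against vehicle 11 of the 101 were called lower, near the 10.4% of all genes that were, and 0 higher, with a median of -0.16. The 10 other Pol I genes had a median of -0.024 against cisplatin, and the smallest adjusted P values were those of Polr1g (-0.17 ± 0.063, adjusted P = 0.105), a Pol I subunit, and Polr2e (-0.34 ± 0.13, adjusted P = 0.12), a subunit common to the 3 polymerases. The 10 other snoRNP and assembly genes had a median of -0.17, led by Ruvbl1 (-0.21 ± 0.055, adjusted P = 0.0254), a helicase of snoRNP assembly, and Nop10 (-0.21 ± 0.062, adjusted P = 0.0491). Small subunit genes (40, median -0.10) were led by Imp4 (-0.20 ± 0.046, adjusted P = 0.0146) and the acetyltransferase Nat10 (-0.22 ± 0.052, adjusted P = 0.0175), and large subunit genes (41, median -0.084) by Rpf2 (-0.25 ± 0.065, adjusted P = 0.0231) and Lyar (-0.25 ± 0.074, adjusted P = 0.0434). None of these 6 reached the fold limit.

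Among polymerases that do not make the ribosomal precursor, 7 subunits found only in Pol II had a median of -0.100 in cotreated against cisplatin tumors. The 11 found only in Pol III had a median of -0.052. Of either, 0 were called, where 1.71% of all genes were called lower and 2.29% higher. The smallest adjusted P values were those of Polr2d (-0.20 ± 0.059, adjusted P = 0.048) and Polr2g (-0.11 ± 0.05, adjusted P = 0.173), and of Crcp (-0.13 ± 0.055, adjusted P = 0.165) and Polr3gl (0.18 ± 0.079, adjusted P = 0.167). Purine and pyrimidine synthesis supplies the nucleotides. Of its 17 genes 1, Umps, was called lower (-0.43 ± 0.062, adjusted P = 0.000778), where 1.71% of all genes were. Atic was next (-0.25 ± 0.057, adjusted P = 0.0127), and the median of the 17 was -0.16.

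Ribosomal protein mRNAs, whose products the members assemble, split by library code within both the cisplatin and the cotreated group. The 79 genes had a median log2 fold change of -0.17 in cotreated against cisplatin tumors, and 2, near the 1.71% of all genes, were called lower, Rpl13a (-0.45 ± 0.091, adjusted P = 0.0067) and Rpl31 (-0.45 ± 0.12, adjusted P = 0.0264). Their level relative to vehicle was -0.14 and -0.17 in the cisplatin tumors of the earlier codes and 0.0076, 0.20 and 0.12 in those of the later codes. Cotreated tumors were at -0.23, -0.26 and -0.25 in the earlier and -0.064 and -0.037 in the later codes, so the 2 groups overlapped when the codes were pooled and did not within either run. Many ribosomal protein genes have near-identical copies elsewhere in the genome, and reads that align to several places were not counted.

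Proliferation genes and markers of other cells also varied with the groups. The 12 proliferation genes had a median of -0.19 in cotreated against cisplatin tumors with 0 called, among them Mki67 (-0.30 ± 0.095, adjusted P = 0.0629) and Top2a (-0.20 ± 0.073, adjusted P = 0.101). All 12 of these genes were below 0, and in KW against vehicle tumors all 12 were too, with a median of -0.15 and 0 called. In cotreated against vehicle tumors 5 of the 12 were called lower, with a median of -0.28. For this count and the marker calls below, 10.4% of all genes were called lower and 13.1% higher in that comparison. These shares were 4.57% and 6.01% in cisplatin against vehicle, 1.71% and 2.29% in cotreated against cisplatin, and 10.7% and 12.6% in cotreated against KW tumors. Summed endothelial markers (6 genes) were 128 to 191 CPM in vehicle, 112 to 181 in KW, 61.1 to 82.2 in cisplatin and 63.8 to 99.5 in cotreated tumors. All 6 were called lower in cisplatin and 5 in cotreated against vehicle tumors, and 1, Cldn5 (1.19 ± 0.30, adjusted P = 0.0247), was called higher in cotreated against cisplatin tumors. Summed macrophage markers (8 genes) were 1180.1 to 1646 CPM in vehicle, 1219 to 1531 in KW, 1284 to 2314 in cisplatin and 1299 to 1709 in cotreated tumors. In cotreated against vehicle tumors Csf1r was called lower and Mrc1 and Cd163 higher, and Mrc1 was also called higher in cisplatin than in vehicle tumors. Summed fibroblast markers (7 genes) were 9809.6 to 12827, 9965 to 11715, 8551 to 14247 and 10734 to 12229 CPM in the same order of groups. Lum and Pdgfrb were called lower in cotreated than in vehicle tumors, and Lum, Pdgfra and Pdgfrb were called lower in cisplatin than in vehicle tumors. Summed epithelial and lung markers (6 genes) were 390.5 to 424, 322 to 433, 479 to 595 and 467 to 547 CPM, and Krt8 was called higher than in vehicle both in cisplatin and in cotreated tumors. Summed neutrophil markers (7 genes) were 47.7 to 123 CPM in vehicle, 52.9 to 152 in KW, 15.5 to 70.4 in cisplatin and 16.4 to 35.5 in cotreated tumors. Against vehicle, 4 of the 6 tested were called lower in cotreated and 2 in cisplatin tumors. Summed T and NK cell markers (8 genes) were 1.93 to 7.999, 4.16 to 31.2, 1.93 to 8.77 and 2.23 to 4.35 CPM in the same order. Of the 8, 7 were called lower in cotreated than in KW tumors, and 0 in cotreated against vehicle tumors. The 31.2 CPM was that of KW replicate 1, and the other KW tumors had 4.16 to 12.3. Whether the calls against KW rest on that tumor was not tested. Skeletal muscle markers (8 genes) reached 1158 CPM in cotreated replicate 4 and at most 271 in every other tumor, and without that tumor 5 members were called against cisplatin, where 2.67% of all genes were called lower. In cotreated against vehicle tumors all 8 of these markers were above 0, with a median of 3.67, and 2 were called higher. Summed adipocyte markers (5 genes) were 21.2 to 233 CPM in vehicle, 19.0 to 110.1 in KW, 12.5 to 32.1 in cisplatin and 27.5 to 56.2 in cotreated tumors, and the 4 tested had a median of 2.36 in cotreated against cisplatin tumors with 0 called. Summed B cell markers (4 genes) were 44.1 CPM in KW replicate 1 and at most 1.49 in every other tumor. Of the defining markers, Sftpc was at 0 in every vehicle, KW and cotreated tumor and Scgb1a1 in every vehicle and cisplatin tumor. In cotreated against cisplatin tumors the median was -0.23 for macrophage, -0.50 for neutrophil and -0.50 for T and NK cell markers, with 0 called. It was 0.18 for endothelial, 0.087 for fibroblast, 0.047 for epithelial and lung and 0.99 for skeletal muscle markers. The part of these differences in the values of the members was not tested.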

How the data were processed

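RNA of 20 tumors was sequenced, 1 library a tumor and 5 tumors a group. Per the paper's methods, the authors made stranded poly(A) libraries, aligned single-end reads to GRCm38 (mm10) with STAR, and used HTSeq (0.6.1p1, union mode) to count those with a unique alignment over each gene, and the deposited values are these raw counts; the strand option is not given in the sources used here. Groups came from the labels, which treat each tumor as a separate sample. All 20 count columns were used.

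Counts were fitted with edgeR 4.0.16 (R 4.3.3; TMM scaling, quasi-likelihood test, robust, all 4 groups in 1 fit) and adjusted by Benjamini-Hochberg over 16665 genes, which held 99.9% of all counts. Calls needed an adjusted P value under 0.05 and a log2 fold change of at least 0.32, both taken from the study. CPM values are TMM-scaled, log2 CPM used a prior count of 2, and errors of fold changes are SE. No molecular identifiers were used, so counts include PCR duplicates. The members and lists were chosen with earlier results of these data known. Values in every tumor are given for the Pol I subunits, the initiation factors, Myc and, in each other role, the 2 members with the smallest and the 1 with the largest adjusted P value in cotreated against cisplatin tumors, and for Bop1, added after its values were seen because it was called. Other lists give their counts, their median and the 2 genes with the smallest adjusted P value. Promoters came from RefSeq (GRCm38.p6), and gene positions from GENCODE M21. Alternatives were DESeq2 1.42.0, limma 3.58.1 (voom), other scalings, filters and fold limits, the replicate block, library codes, exon length and leaving out each tumor.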

Additional observations from a re-analysis of the deposited data

Results flagged for a closer look

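In 136 groups of 5 tumors, 10 had 1 tumor that stood apart from the other 4 (Dixon's ratio above 0.71), where chance gives about 1 in 20 groups, or 6.8. Myc was at 439.5 CPM in cisplatin replicate 5, against 252 to 303 in the others, and at 312.9 CPM in cotreated replicate 4, against 222 to 245. Noc2l was at 264.1 CPM in the same cisplatin replicate 5, against 218 to 225. In vehicle tumors, Polr1a was at 206.6 CPM in replicate 5, against 229 to 238, Polr1c at 136.1 in replicate 4, against 127 to 129, and Npm1 at 770.1 in replicate 4, against 626 to 665. Rrn3 was at 91.95 CPM in KW replicate 2, against 80.2 to 82.0, and Tsr1 at 173.7 CPM in KW replicate 4, against 182 to 185. Ubtf was at 251.6 CPM in cotreated replicate 2, against 229 to 235. The averaged initiation factors were at -0.047 (log2 CPM relative to vehicle) in KW replicate 5, against 0.011 to 0.026.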

How the results depend on the processing

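The count of members called in KW against vehicle tumors was 0 under every alternative. In cotreated against cisplatin tumors the count of 4 became 11 with no fold limit (3.22% of all genes lower), 0 in a test against the fold limit (0.024%), 2 with only the groups compared in the fit (0.509% of all genes lower, against 1.71%), 2 in the earlier (0.627% of all genes lower) and 0 in the later library codes, and 1 to 6 with 1 tumor left out. The later codes alone called 1 of 17222 genes there. Against vehicle the 13 became 8 to 14 with 1 tumor left out. With no fold limit, a test against it and the later codes, the 13 became 35 (34 lower and 1 higher), 1 and 6. Against KW the 15 became 36 (35 lower and 1 higher), 2 and 8. All genes called lower were 17.7%, 3.95% and 5.34% against vehicle and 17.6%, 4.69% and 4.37% against KW under these settings. In either direction, 5906 of 16665 genes passed against vehicle with no fold limit, and 5837 against KW. In cisplatin against vehicle tumors the 0 became 8 with no fold limit (8.24%) and 2 (Heatr1 and Ddx10) in the later codes, where 6.93% of all genes were called lower. The interaction's 0 became 3 with DESeq2 (0.324% of 35226 genes lower, with no filter on low counts). It became 1 (Polr1d) with at least 10 counts in every tumor (0.0997%), and 0 to 1 with 1 tumor left out (0% to 0.53%, the latter without cotreated replicate 4). The causes were not tested. In the later codes the members' median was -0.023 for cisplatin and -0.19 for cotreatment against vehicle and -0.18 for cotreatment against KW.

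The replicate numbers are shared by the groups. Same-numbered tumors had correlations of their deviations from -0.39 to 0.39, and 3 of 20 tumors correlated best with their own number. With 1 tumor of each number in a group, these values cannot tell whether the numbers mark pairs. With the replicate block the counts were 0, 0, 13, 4, 14 and 0 in the 6 comparisons, where 0%, 4.22%, 10.2%, 1.47%, 10.5% and 0% of all genes were called lower.

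Of 648 values of the 24 named members under alternatives, 576 kept their direction and side of the threshold, 37 lost a call, 13 gained one and 22 changed sign, all of members called in neither fit. Against cisplatin, Taf1d became 0.00021 with DESeq2, 0.012 with limma voom, 0.00013 with RLE scaling, 0.0041 with no filter, 0.00089 with at least 10 counts, 0.0045 with the replicate block and 0.090 in the later codes. In the earlier codes Ubtf became 0.00016, Taf1c 0.083, Gnl3 0.027, Fbl 0.19, Noc4l 0.074 and Wdr12 -0.12. Gnl3 became 0.0029 with no filter, Noc4l 0.0091 with the exon length offset, and Wdr12 -0.0050 with upper quartile scaling, -0.00048 with only the groups compared and -0.050 with the offset. Against vehicle, Ubtf became 0.0011 with no filter and 0.0063 with at least 10 counts, and Noc4l -0.058 with the codes as a term and -0.0020 in the later codes. With 1 tumor left out, the ranges that crossed 0 were, against cisplatin, -0.030 to 0.038 (Gnl3), -0.052 to 0.024 (Noc4l), -0.062 to 0.022 (Rrn3), -0.083 to 0.072 (Taf1d) and -0.030 to 0.036 (Wdr12), and, against vehicle, -0.018 to 0.11 (Noc4l), -0.069 to 0.027 (Taf1d) and -0.049 to 0.028 (Ubtf).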
